A study of Zea mays with 12 samples.

Results

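Genes were sought whose transcript level was raised or lowered in persistent synergid cells at 12 and 18 h after pollination (HAP) relative to both synergid cells before pollination and persistent synergid cells at 24 HAP. The 6 intermediate libraries (pSC12 and pSC18, 3 each) were set against the 6 libraries of both ends (SC, 0 HAP, and pSC24, 3 each), which together are all 12 libraries of the series. In the contrast of the mean of pSC12 and pSC18 against the mean of SC and pSC24, 159 genes were higher and 469 lower by more than 2-fold with the same direction against each end, of 21143 genes and loci tested and 45246 in the table. Of these 628, the 86 that also passed 2-fold and an adjusted p under 0.05 against SC and against pSC24 separately are described here in most detail. They comprise 15 higher and 71 lower genes.

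Synergid cells flank the egg cell in the embryo sac of flowering plants. They secrete the peptides that guide the pollen tube, and the receptive synergid cell degenerates when the tube bursts inside it. The other, persistent synergid cell outlives fertilization for some time and is then removed, which in many species keeps further pollen tubes away. The intermediate stages lie after fertilization, with the persistent cell in place. It is also still in place at pSC24, which the paper describes as shortly before its elimination.

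All cells came from the maize inbred line B73, with no transgene or treatment other than pollination. Each library was made from 25 to 28 manually isolated cells, whose walls had been loosened with cellulase and macerozyme and whose cDNA was amplified. The pSC12, pSC18 and pSC24 cells are the persistent synergid cell of pollinated ovules, and the SC cells were taken before pollination. By their labels, the stages of both ends (0 and 24 HAP) are a full day apart, and the plants grew in a daily cycle of light and dark. No clock time of sampling is given in the sources used here. A daily rhythm was therefore not separated from time after pollination for any gene, and it was not tested. Because every library pools cells, a lower level can mean fewer cells with the transcript or less of it per cell, and these cannot be told apart. Expression is given as FPKM (fragments counted per gene, scaled by gene length and library size), which is comparable between genes because it is per length. Gene positions are on the maize assembly Zm-B73-REFERENCE-NAM-5.0, as the deposited tables give them. Fold changes are on the log2 scale and come from edgeR's quasi-likelihood test on the counts, with p-values adjusted over all 21143 tested genes by the Benjamini-Hochberg method.

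Counts per library ranged from 15435736 to 26539602, and Pearson's r of log2(FPKM + 1) across genes was 0.9636 to 0.9867 between replicates. Replicate 3 of pSC18 gave the lowest of these, 0.9636 with replicate 1 and 0.9645 with replicate 2. Without that library 17 genes were higher and 85 lower past 2-fold against each end. The synergid genes ZmES4 (Zm00001eb393820) and ZmMYB98 (Zm00001eb212880) were detected in every library, with ZmES4 at 6018 to 6345 FPKM in pSC12 and 8433 to 10290 FPKM in pSC18, against 11040 to 13050 FPKM in SC and 9764 to 13010 FPKM in pSC24. The 2 egg cell-secreted protein 1 (EC1) genes, which mark the neighbouring egg cell, summed to 47.2 to 67.9 FPKM in pSC12 and 67.5 to 199 FPKM in pSC18, against 172 to 428 FPKM in SC and 42.8 to 119 FPKM in pSC24. Of the other cell types, 13 of 23 zygote and embryo genes, 33 of 38 central cell and endosperm genes and 39 of 66 pollen genes were at 0 in all libraries. The central cell and endosperm list summed to 1060 to 1100 FPKM in pSC12 and 960 to 1250 FPKM in pSC18, against 1190 to 2070 FPKM in SC and 1160 to 1820 FPKM in pSC24. Most of this sum came from a locus without an annotated gene that resembles MATERNALLY EXPRESSED GENE 1, a gene known from endosperm transfer cells, with stage means of 991 FPKM in pSC12 and 991 FPKM in pSC18, against 1540 FPKM in SC and 1230 FPKM in pSC24. The pollen list summed to 189 to 211 FPKM in pSC12 and 196 to 227 FPKM in pSC18, against 180 to 221 FPKM in SC and 282 to 401 FPKM in pSC24. Most of this sum and of its rise at pSC24 came from Zm00001eb376740 and Zm00001eb270920, described as Profilin-5 and Profilin-4. Their stage means were 59.8 and 57.8 FPKM in pSC12 and 70.9 and 82.2 FPKM in pSC18, against 66.2 and 52.4 FPKM in SC and 129 and 137 FPKM in pSC24. The 16 kDa gamma-zein gene Zm00001eb099950, an endosperm storage protein gene, was at 0 in pSC12 and in 2 of 3 pSC18 libraries, against 0 in SC and 61.1 to 149.5 FPKM in pSC24. The part of these cells in the results below was not tested.

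The study's read statistics place the 12 libraries in 2 sets by the share of reads mapped. SC, pSC18 and pSC24 replicate 1 form the set with the lower share, and pSC12 and pSC24 replicates 2 and 3 the set with the higher share. Only pSC24 holds libraries of both sets, so pSC12 differs from SC in its set as well as in its stage. For this reason the counts are also given with a term for the set and from the 7 libraries of the lower set alone, and the genes that passed or did not pass in these fits are named after the higher and after the lower genes. The term is estimated within pSC24 alone, from replicate 1 against replicates 2 and 3. A gene that did not pass with the term is therefore not shown to depend on the set.

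**Figure D1:**
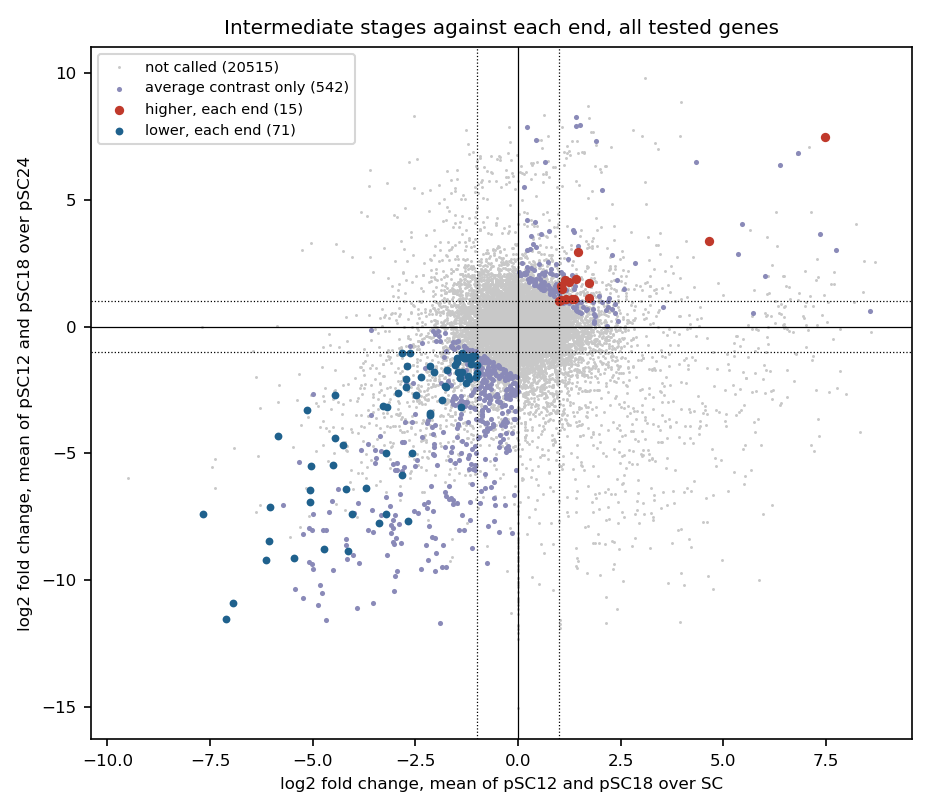
The log2 fold change of the mean of pSC12 and pSC18 over SC (x axis) is plotted against that over pSC24 (y axis) for the 21143 tested genes, 1 point per gene, with dotted lines at 2-fold. The 15 genes higher against each end lie in the upper right and the 71 lower genes in the lower left, and the 542 genes called in the average contrast alone share these quadrants.

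Among genes past the thresholds, more dipped in the interval than rose. By sign alone the order was reversed, with 3527 genes (16.7%) higher and 3293 (15.6%) lower in all 4 single stage comparisons. The 15 higher genes are 0.0709% and the 71 lower genes 0.336% of those tested. Between the ends themselves, 2170 genes were higher (10.3%) and 1600 lower (7.57%) in pSC24 than in SC. For the average contrast the called shares were 0.752% higher and 2.22% lower. Most of those genes stood apart from 1 end only. Among the 159 higher genes, 106 did not pass both thresholds against SC and 49 did not pass them against pSC24, and among the 469 lower genes 368 did not pass against SC and 33 did not pass against pSC24. Of the 469, 253 were called higher in pSC24 than in SC. Taken singly, the comparison of the interval with SC called 2.16% of the genes higher and 1.77% lower, and that with pSC24 called 4.61% higher and 8.67% lower. Without the condition on direction the average contrast called 0.842% higher and 2.6% lower.

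The thresholds decided part of these counts. Against both ends with no fold threshold, 158 genes were higher and 207 lower. The higher gene nearest to the 2-fold line inside it was Zm00001eb124390, with log2 fold changes of 1.01 over SC and 1.02 over pSC24, and the nearest outside was Zm00001eb431180, with 0.99 and 1.28. On the lower side these were Zm00001eb288390, with -1.01 over SC and -1.84 over pSC24, and Zm00001eb242360, with -1.75 and -0.98.

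Single libraries and the mapping set moved the counts by more than 1.5 times. Leaving out SC replicate 1, 2 or 3 gave 8, 9 and 8 higher genes and 30, 45 and 34 lower genes, and leaving out pSC18 replicate 1 gave 8 higher genes. The average contrast gave 87, 103 and 97 higher genes without SC replicate 1, 2 or 3. With a term for the mapping set 27 genes were lower, and the signs against both ends were the same for 15 of the 15 higher and 71 of the 71 lower genes. The thresholds were still passed by 4 of the 15 and 18 of the 71. In the 7 libraries of the lower set alone, where pSC18 was compared with SC and with a single pSC24 library, the signs against both ends were the same for 15 of 15 and 68 of 71, and 4 of 15 and 5 of 71 passed the thresholds. Scaling by total counts in place of TMM moved the median over all tested genes in the average contrast to a log2 fold change of 0.15, against 0.02 with TMM, and called 35 higher genes, among them the 15, and 49 lower genes, among them 47 of the 71.

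In all 15 higher genes the 6 intermediate libraries lay above the 6 end libraries, and over all tested genes 0.974% were higher without overlap. For all 15, pSC12 and pSC18 each had the same sign against each end, which 16.7% of the tested genes had in this direction. The 15 were chosen by the same counts, so the shares are given as a description and nothing is read from them. No higher gene differed between pSC18 and pSC12 at an adjusted p under 0.05 (edgeR), where 6 of all 21143 genes did (0.0284%, with 0.0189% higher and 0.00473% lower in pSC18 past 2-fold as well). At an unadjusted p under 0.05, 1 of the 15 did. At pSC24 14 of the 15 were called neither higher nor lower than in SC, and the remaining gene was lower at pSC24. Their median transcript length was 3113 bases, against 1934 bases over all tested genes. All 15 are annotated as protein coding, and they lie on 9 of the 10 chromosomes.

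**Figure D2:**
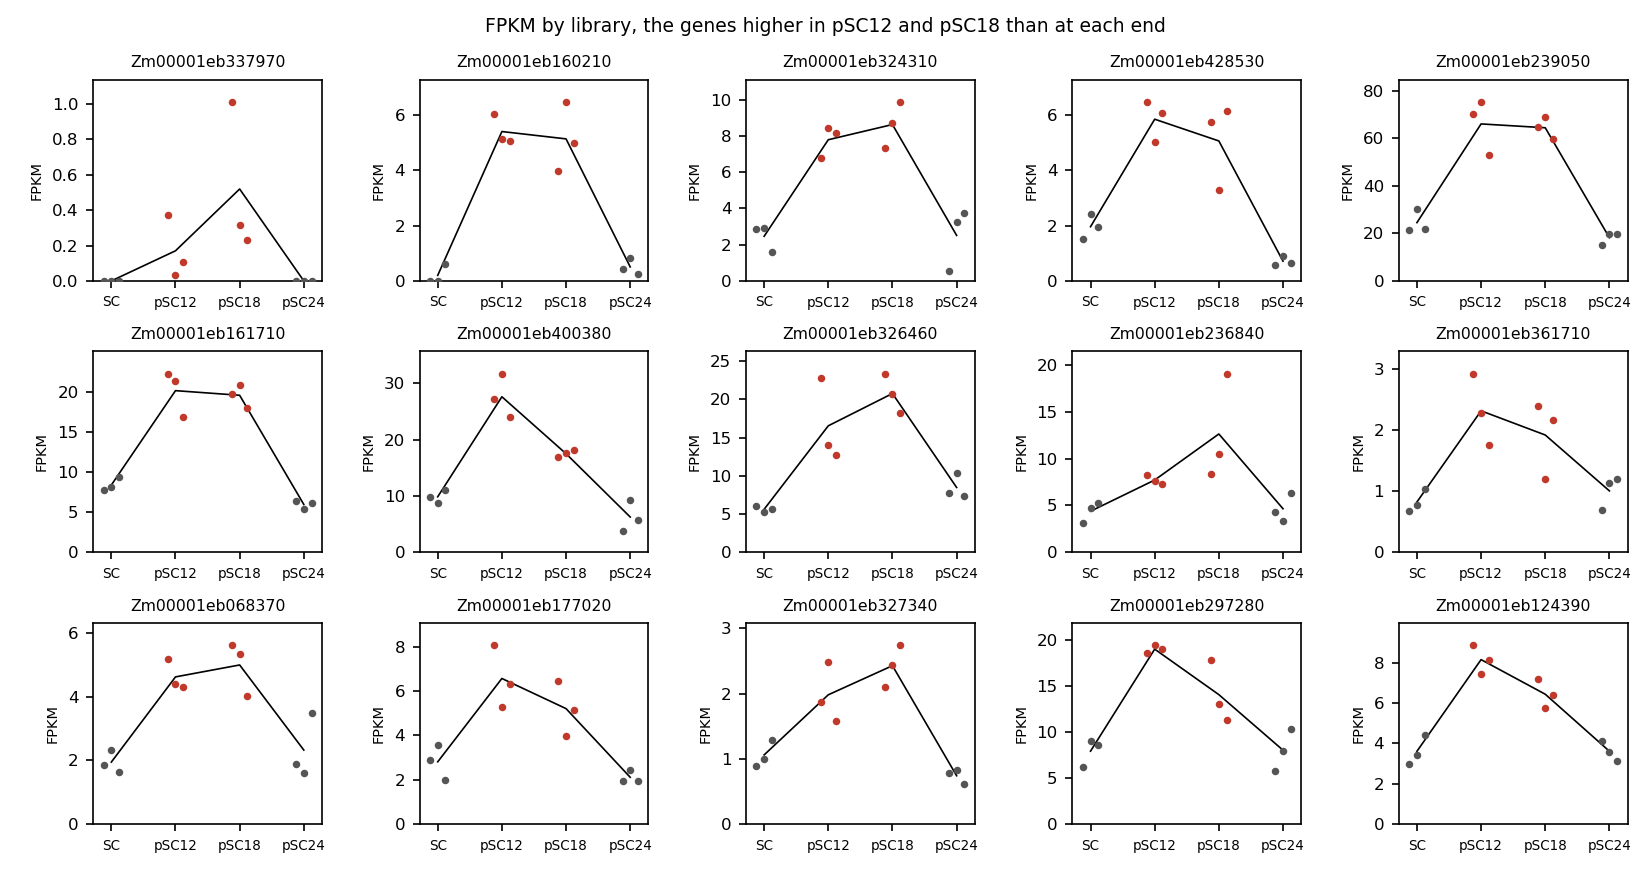
FPKM (y axis, linear, each panel with its own range) is shown by stage (x axis) for the 15 higher genes, 1 point per library and a line through the stage means, with intermediate libraries in red and end libraries in grey. In each panel the 6 red points lie above the 6 grey points.

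Receptor kinase genes were among the most stable of the higher genes. Zm00001eb428530 (chr10:138763073-138767279, minus strand) is described as similar to the rice inactive leucine-rich repeat receptor kinase XIAO, which acts in organ size in rice. The XIAO-like gene had 6.46, 5.03 and 6.06 FPKM in pSC12 and 5.76, 3.28 and 6.15 FPKM in pSC18, against 1.51, 2.41 and 1.97 FPKM in SC and 0.59, 0.889 and 0.664 FPKM in pSC24. All 6 intermediate libraries were above every SC library, and the pSC24 libraries were the lowest. For the XIAO-like gene, the log2 fold change was 1.48 ± 0.25 over SC (SE, edgeR adjusted p = 0.00353) and 2.94 ± 0.28 over pSC24 (SE, edgeR adjusted p = 2.1e-05). It was also the 1 higher gene that was called lower in pSC24 than in SC, with a log2 fold change of -1.47 ± 0.29 (SE, edgeR adjusted p = 0.00225).

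Zm00001eb161710 (chr3:229773473-229788036, minus strand) resembles the Arabidopsis probable inactive receptor kinase At2g26730. The second receptor kinase gene had 22.2, 21.3 and 16.8 FPKM in pSC12 and 19.8, 20.9 and 18 FPKM in pSC18, against 7.71, 8.09 and 9.35 FPKM in SC and 6.38, 5.35 and 6.16 FPKM in pSC24. Its lowest intermediate library was above its highest end library, and pSC12 and pSC18 overlapped. For this receptor kinase the log2 fold change was 1.25 ± 0.14 over SC (SE, edgeR adjusted p = 0.000345) and 1.75 ± 0.14 over pSC24 (SE, edgeR adjusted p = 8.23e-06). Both kinase genes belong to a list of receptor-like kinases that also takes in genes of the RALF peptide family. Both carry leucine-rich repeats, and a link of these genes to RALF peptides was not tested. Of the 279 tested members of the list 2 were higher and 2 lower against each end. Over all genes 0.0709% were higher and 0.336% lower. In the average contrast 3 were higher (1.08%) and 7 lower (2.51%), near the 0.752% and 2.22% of all genes.

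The higher genes included 2 of the 569 tested genes described as RING, U-box or F-box ubiquitin ligases, while 7 of the 569 were lower (1.23%). Over all tested genes 0.0709% were higher and 0.336% lower, and the group was formed after the values were seen. Zm00001eb239050 (chr5:150356081-150359193, minus strand) is described as similar to the rice U-box domain-containing protein 4, and U-box proteins attach ubiquitin to their targets. The U-box gene had 70.3, 75.2 and 52.8 FPKM in pSC12 and 64.8, 69 and 59.7 FPKM in pSC18, against 21.4, 30.3 and 21.9 FPKM in SC and 15.2, 19.8 and 19.6 FPKM in pSC24, the highest level among the 15 genes. Its lowest intermediate library was well above its highest end library. For the U-box gene, the log2 fold change was 1.42 ± 0.16 over SC (SE, edgeR adjusted p = 0.000422) and 1.86 ± 0.16 over pSC24 (SE, edgeR adjusted p = 1.27e-05).

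Zm00001eb124390 (chr3:17630405-17653262, minus strand) resembles PRT6, the Arabidopsis ligase that recognises proteins for degradation by their N-terminal residue. The PRT6-like gene had 8.86, 7.46 and 8.14 FPKM in pSC12 and 7.2, 5.73 and 6.38 FPKM in pSC18, against 2.98, 3.43 and 4.4 FPKM in SC and 4.14, 3.58 and 3.1 FPKM in pSC24. Every intermediate library was above every end library, with pSC12 somewhat above pSC18. For the PRT6-like gene, the log2 fold change was 1.01 ± 0.16 over SC (SE, edgeR adjusted p = 0.0022) and 1.02 ± 0.16 over pSC24 (SE, edgeR adjusted p = 0.000545), just past the 2-fold line. It was not past it in 6 of the 12 fits without 1 library.

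The U-box gene, the At2g26730-like kinase gene and, on the lower side, Zm00001eb147960 and Zm00001eb072290 passed the thresholds in all 27 alternative settings. With the XIAO-like gene, the U-box gene and the At2g26730-like gene were the 3 higher genes that passed in each of the 12 fits without 1 library. These 3 also passed against each end with the term for the mapping set and in the 7 libraries of the lower set. Most other higher genes did not pass with the term.

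Regulators of transcription were few. Zm00001eb160210 (chr3:225397193-225402604, plus strand) carries a helix-loop-helix DNA-binding domain, found in the bHLH family of transcription factors, and has no further description. The helix-loop-helix gene had 6.04, 5.12 and 5.06 FPKM in pSC12 and 3.97, 6.47 and 4.99 FPKM in pSC18, against 0, 0 and 0.605 FPKM in SC and 0.442, 0.824 and 0.254 FPKM in pSC24. It was at 0 in 2 SC libraries and under 1 FPKM in all end libraries. For the helix-loop-helix gene, the log2 fold change was 4.66 ± 0.98 over SC (SE, edgeR adjusted p = 0.0102) and 3.38 ± 0.88 over pSC24 (SE, edgeR adjusted p = 0.0136), and only leaving out pSC24 replicate 3 among the single libraries ended the call. With the mapping set term the adjusted p over SC was 0.0502 (edgeR).

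Zm00001eb337970 (chr8:23252764-23257909, minus strand) is described as similar to the rice homeobox-leucine zipper protein HOX29, a class of plant transcription factors. The HOX29-like gene had 0.374, 0.0312 and 0.105 FPKM in pSC12 and 1.01, 0.316 and 0.233 FPKM in pSC18, against 0, 0 and 0 FPKM in SC and 0, 0 and 0 FPKM in pSC24. Its counts were 0 in all 6 end libraries, so the fold is a lower bound against a floor of 3 counts in each library. By that bound it was at least 6.47-fold higher in the intermediate libraries than in SC and at least 9.4-fold higher than in pSC24. At these levels the call did not pass in 8 of the 12 fits without 1 library, nor with DESeq2.

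Zm00001eb297280 (chr6:178723336-178748112, minus strand) resembles BTAF1 of Arabidopsis, an ATPase that removes the TATA-binding protein from DNA. The BTAF1-like gene had 18.5, 19.4 and 19 FPKM in pSC12 and 17.8, 13.1 and 11.3 FPKM in pSC18, against 6.13, 8.96 and 8.61 FPKM in SC and 5.76, 7.91 and 10.4 FPKM in pSC24. The pSC12 libraries lay close together and above those of pSC18. For the BTAF1-like gene, the log2 fold change was 1.05 ± 0.20 over SC (SE, edgeR adjusted p = 0.00627) and 1.04 ± 0.20 over pSC24 (SE, edgeR adjusted p = 0.00228). Zm00001eb361710 (chr8:159683770-159700946, minus strand), similar to the Arabidopsis splicing regulator SUPPRESSOR OF ABI3-5, had 2.92, 2.28 and 1.75 FPKM in pSC12 and 2.4, 1.2 and 2.17 FPKM in pSC18, against 0.672, 0.769 and 1.04 FPKM in SC and 0.688, 1.13 and 1.2 FPKM in pSC24. For this splicing gene the log2 fold change was 1.35 ± 0.34 over SC (SE, edgeR adjusted p = 0.0257) and 1.08 ± 0.33 over pSC24 (SE, edgeR adjusted p = 0.0316). Zm00001eb327340 (chr7:174369497-174377143, plus strand), similar to rice exportin-T, which carries tRNA out of the nucleus, had 1.88, 2.48 and 1.58 FPKM in pSC12 and 2.1, 2.44 and 2.74 FPKM in pSC18, against 0.886, 0.998 and 1.29 FPKM in SC and 0.777, 0.82 and 0.619 FPKM in pSC24. For the exportin gene, the log2 fold change was 1.05 ± 0.28 over SC (SE, edgeR adjusted p = 0.0328) and 1.58 ± 0.29 over pSC24 (SE, edgeR adjusted p = 0.00165). These last 2 genes passed in only 2 and 4 of the 12 fits without 1 library, and both were chosen after their values were seen.

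Some of the higher genes encode enzymes of sugar and wall metabolism. Zm00001eb400380 (chr9:153724641-153733285, plus strand) is similar to the Arabidopsis probable galacturonosyltransferase 14, a family of enzymes that build pectin. The galacturonosyltransferase gene had 27.1, 31.7 and 24 FPKM in pSC12 and 16.8, 17.6 and 18.1 FPKM in pSC18, against 9.75, 8.71 and 11.2 FPKM in SC and 3.79, 9.37 and 5.67 FPKM in pSC24. Its pSC12 libraries were all above its pSC18 libraries, although the difference between these stages was not past the threshold (adjusted p = 0.298, edgeR). For the galacturonosyltransferase gene, the log2 fold change was 1.16 ± 0.23 over SC (SE, edgeR adjusted p = 0.00801) and 1.82 ± 0.24 over pSC24 (SE, edgeR adjusted p = 0.000185).

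Zm00001eb177020 (chr4:64090665-64094595, plus strand) resembles trehalose-phosphate synthase 5 of Arabidopsis, of a class of proteins tied to sugar signalling. The trehalose-phosphate synthase gene had 8.06, 5.3 and 6.33 FPKM in pSC12 and 6.47, 3.99 and 5.15 FPKM in pSC18, against 2.87, 3.56 and 1.98 FPKM in SC and 1.94, 2.43 and 1.95 FPKM in pSC24. Its intermediate libraries did not overlap those of the ends, with the narrowest gap between pSC18 and SC. For the trehalose-phosphate synthase gene, the log2 fold change was 1.07 ± 0.25 over SC (SE, edgeR adjusted p = 0.0178) and 1.49 ± 0.25 over pSC24 (SE, edgeR adjusted p = 0.00108). Zm00001eb068370 (chr2:5438902-5443679, plus strand), similar to the Arabidopsis flavonol glucosyltransferase UGT89B1, had 5.19, 4.39 and 4.3 FPKM in pSC12 and 5.62, 5.36 and 4.03 FPKM in pSC18, against 1.86, 2.33 and 1.64 FPKM in SC and 1.89, 1.59 and 3.49 FPKM in pSC24. For the glucosyltransferase gene, chosen after its values were seen, the log2 fold change was 1.31 ± 0.30 over SC (SE, edgeR adjusted p = 0.0158) and 1.07 ± 0.29 over pSC24 (SE, edgeR adjusted p = 0.0182).

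The remaining higher genes have little or no description. Zm00001eb324310 (chr7:166735051-166736575, minus strand), with a domain of unknown function shared with a cotton fibre protein, had 6.77, 8.46 and 8.16 FPKM in pSC12 and 7.33, 8.72 and 9.86 FPKM in pSC18, against 2.84, 2.94 and 1.6 FPKM in SC and 0.538, 3.23 and 3.77 FPKM in pSC24. For the unknown-domain gene, the log2 fold change was 1.74 ± 0.48 over SC (SE, edgeR adjusted p = 0.0379) and 1.72 ± 0.47 over pSC24 (SE, edgeR adjusted p = 0.0189). Zm00001eb326460 (chr7:171796070-171797166, minus strand) had 22.8, 14.1 and 12.7 FPKM in pSC12 and 23.3, 20.7 and 18.2 FPKM in pSC18, against 6.04, 5.24 and 5.62 FPKM in SC and 7.7, 10.4 and 7.34 FPKM in pSC24. Its log2 fold change was 1.72 ± 0.25 over SC (SE, edgeR adjusted p = 0.0014) and 1.14 ± 0.24 over pSC24 (SE, edgeR adjusted p = 0.00389). Zm00001eb236840 (chr5:130788793-130789634, minus strand) had 8.29, 7.55 and 7.29 FPKM in pSC12 and 8.3, 10.5 and 19 FPKM in pSC18, against 3.14, 4.77 and 5.24 FPKM in SC and 4.29, 3.32 and 6.34 FPKM in pSC24, with 1 pSC18 library above all others. Its adjusted p over SC was the closest to the threshold among the 15, with a log2 fold change of 1.17 ± 0.34 over SC (SE, edgeR adjusted p = 0.0498) and 1.10 ± 0.34 over pSC24 (SE, edgeR adjusted p = 0.0323). A locus without an annotated gene (chr6:19003584-19006084, minus strand) was called in the average contrast only and had 12.3, 8.13 and 4.68 FPKM in pSC12 and 4.1, 9.41 and 2.33 FPKM in pSC18, against 1.96, 0.774 and 1.32 FPKM in SC and 0, 1.16 and 1.66 FPKM in pSC24. For this locus the log2 fold change was 2.30 ± 0.90 over SC (SE, edgeR adjusted p = 0.135) and 2.83 ± 0.93 over pSC24 (SE, edgeR adjusted p = 0.0413), and the first of these is not past the threshold.

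With the term for the mapping set, 4 of the 15 higher genes passed the thresholds against each end, namely the XIAO-like, At2g26730-like and U-box genes and Zm00001eb326460. The PRT6-like gene was under 2-fold over pSC24 with the term, at a log2 fold change of 0.98. The adjusted p over SC (edgeR) with the term was 0.0861 for the BTAF1-like gene, 0.111 for the galacturonosyltransferase gene and 0.111 for the trehalose-phosphate synthase gene. It was 0.11 for the exportin gene, 0.12 for the glucosyltransferase gene, 0.198 for Zm00001eb236840 and 0.205 for the splicing gene. For the HOX29-like gene it was 1. The unknown-domain gene moved most among the genes detected at both ends, to a log2 fold change of 0.40 over SC (edgeR adjusted p = 0.589) with the term, and it passed in 3 of the 12 fits without 1 library. In the lower set alone, where pSC18 stands for the interval, its log2 fold change over SC was 1.82 (edgeR adjusted p = 0.0175), and it was the fourth higher gene that passed there.

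The 71 lower genes were less uniform. In 41 of them the 6 intermediate libraries lay below the 6 end libraries (1.24% of all tested genes did), and in 69 pSC12 and pSC18 each had the negative sign against each end (15.6% of all tested genes). These genes too were chosen by the same counts, so nothing is read from these shares. The level was lower in pSC12 than in pSC18 for 43 and higher for 22, with none past the threshold between these stages by edgeR. At an unadjusted p under 0.05 (edgeR) 19 differed, 18 of them higher in pSC18. Of the 21143 tested genes, 1672 were higher in pSC18 at that p. The pSC12 and pSC18 libraries also differ in their mapping set, and the part of the set in this comparison was not tested. At pSC24, 57 of the 71 were called neither higher nor lower than in SC, 12 were called higher than in SC and 2 lower. By level, 39 reached 5 FPKM or more in the mean of the 6 intermediate or of the 6 end libraries, 8 stayed under 1 FPKM in both means, and 6 had no count in any intermediate library. For 67 the annotation is protein coding, 2 are non-coding and 2 are loci without an annotated gene.

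Genes of acyl transfer and acyl activation were among the named lower genes. Zm00001eb147650 (chr3:183437310-183439190, minus strand) is similar to the uncharacterized Arabidopsis acetyltransferase At3g50280. The acetyltransferase gene had 0.493, 0.841 and 0.0184 FPKM in pSC12 and 5.86, 20.6 and 1.25 FPKM in pSC18, against 20.9, 47.6 and 44.6 FPKM in SC and 233, 167 and 127 FPKM in pSC24. It was nearly absent at pSC12, uneven between the pSC18 libraries and above SC in every pSC24 library. For the acetyltransferase gene, the log2 fold change was -4.20 ± 0.66 over SC (SE, edgeR adjusted p = 0.00232) and -6.40 ± 0.69 over pSC24 (SE, edgeR adjusted p = 4.78e-05). Between pSC18 and pSC12 the log2 fold change was 4.34 (edgeR adjusted p = 0.105).

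Zm00001eb296810 (chr6:177662661-177665223, plus strand) has its best match in the mycobacterial fatty acid-AMP ligase FadD32 and carries an AMP-binding enzyme domain. The AMP ligase gene had 2.17, 0.644 and 3.06 FPKM in pSC12 and 5.03, 5.26 and 9.34 FPKM in pSC18, against 18.7, 26.7 and 15.2 FPKM in SC and 21.9, 26.7 and 22.1 FPKM in pSC24. SC and pSC24 overlapped, and all intermediate libraries were below both. For the AMP ligase gene, the log2 fold change was -2.49 ± 0.34 over SC (SE, edgeR adjusted p = 0.00104) and -2.70 ± 0.34 over pSC24 (SE, edgeR adjusted p = 0.000139). Zm00001eb084430 (chr2:62107463-62116191, plus strand), whose best match is a human lysosomal N-acetyltransferase, had 3.57, 3.54 and 3.72 FPKM in pSC12 and 2.64, 2.34 and 1.44 FPKM in pSC18, against 7.37, 7.15 and 8.39 FPKM in SC and 5.79, 9.65 and 13.5 FPKM in pSC24. For this N-acetyltransferase gene the log2 fold change was -1.46 ± 0.25 over SC (SE, edgeR adjusted p = 0.00325) and -1.78 ± 0.24 over pSC24 (SE, edgeR adjusted p = 0.000259). Zm00001eb230090 (chr5:72058849-72071350, minus strand) is similar to TRICHOME BIREFRINGENCE-LIKE 12 of Arabidopsis, of a family that acetylates wall polysaccharides. This wall gene had 2.05, 1.68 and 3.58 FPKM in pSC12 and 2.53, 3.04 and 2.44 FPKM in pSC18, against 8.11, 5.55 and 6.06 FPKM in SC and 7.82, 6.26 and 12.9 FPKM in pSC24. For the wall gene, the log2 fold change was -1.36 ± 0.30 over SC (SE, edgeR adjusted p = 0.014) and -1.80 ± 0.30 over pSC24 (SE, edgeR adjusted p = 0.000933).

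**Figure D3:**
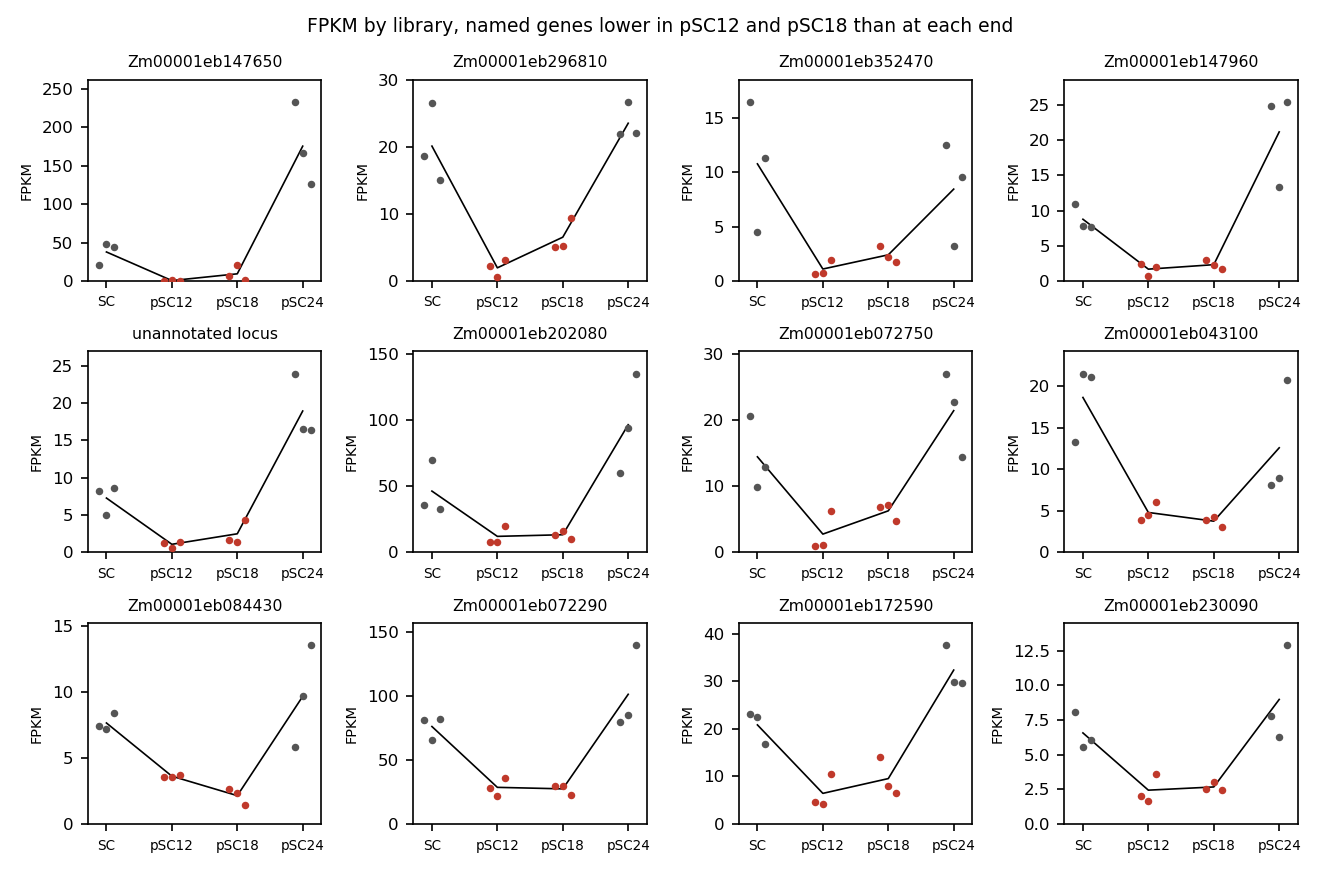
FPKM (y axis, linear, each panel with its own range) is shown by stage (x axis) for the 12 named lower genes, 1 point per library and a line through the stage means, with intermediate libraries in red and end libraries in grey. The 6 red points lie below the 6 grey points in each panel, the metallothionein locus is titled as unannotated, and for Zm00001eb147650 the pSC24 points lie far above those of SC.

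Single transporter genes were among the lower members. Zm00001eb202080 (chr4:218922411-218924400, minus strand) is similar to amino acid permease 3 of Arabidopsis, an importer of amino acids. The permease gene had 8.17, 7.95 and 20.2 FPKM in pSC12 and 13.5, 16.5 and 10.0 FPKM in pSC18, against 36, 70.0 and 32.8 FPKM in SC and 60.3, 94 and 135 FPKM in pSC24. All intermediate libraries were below all end libraries, and SC and pSC24 overlapped. For the permease gene, the log2 fold change was -1.86 ± 0.34 over SC (SE, edgeR adjusted p = 0.00471) and -2.90 ± 0.34 over pSC24 (SE, edgeR adjusted p = 7.56e-05). Zm00001eb172590 (chr4:35081728-35085443, minus strand) resembles the Arabidopsis putative glycerol-3-phosphate transporter 1. The glycerol-3-phosphate transporter gene had 4.59, 4.14 and 10.6 FPKM in pSC12 and 14.2, 7.93 and 6.5 FPKM in pSC18, against 23.2, 22.5 and 16.8 FPKM in SC and 37.6, 29.9 and 29.6 FPKM in pSC24. For the glycerol-3-phosphate transporter gene the log2 fold change was -1.41 ± 0.29 over SC (SE, edgeR adjusted p = 0.00944) and -2.03 ± 0.29 over pSC24 (SE, edgeR adjusted p = 0.000317). Of the list of sugar and amino acid transporters, 1 of 119 tested genes was lower and none higher against each end. In the average contrast 7 of the 119 were lower (5.88%) and 1 higher (0.84%), against 2.22% and 0.752% of all genes, and 3 of the 7 were also lower than SC at an adjusted p under 0.05 (edgeR). Of the aquaporins and ion transporters 3 of 124 were lower (2.42%), a share near that of all genes.

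Zm00001eb072290 (chr2:13922176-13925125, plus strand) has a SNARE-associated Golgi protein domain, named for membrane traffic proteins, and matches the Arabidopsis membrane protein At4g09580. The Golgi-domain gene had 28.5, 21.5 and 35.9 FPKM in pSC12 and 29.7, 29.8 and 22.9 FPKM in pSC18, against 81.3, 65.5 and 82 FPKM in SC and 79.6, 85.1 and 139.9 FPKM in pSC24. It was the most abundant of the genes lowered in every setting, and its lowest end library was far above its highest intermediate library. For the Golgi-domain gene, the log2 fold change was -1.44 ± 0.19 over SC (SE, edgeR adjusted p = 0.000856) and -1.84 ± 0.19 over pSC24 (SE, edgeR adjusted p = 3.65e-05). Zm00001eb147960 (chr3:184485726-184489521, minus strand), which carries no description, had 2.34, 0.715 and 1.97 FPKM in pSC12 and 2.97, 2.21 and 1.75 FPKM in pSC18, against 10.9, 7.77 and 7.6 FPKM in SC and 24.8, 13.3 and 25.4 FPKM in pSC24. For this undescribed gene the log2 fold change was -2.15 ± 0.34 over SC (SE, edgeR adjusted p = 0.00232) and -3.41 ± 0.34 over pSC24 (SE, edgeR adjusted p = 3.14e-05).

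A few genes of redox and metal handling were among the lower members. Zm00001eb043100 (chr1:227503002-227505303, minus strand) is similar to rice peroxidase 1, a secreted enzyme that uses hydrogen peroxide. The peroxidase gene had 3.9, 4.45 and 6.07 FPKM in pSC12 and 3.88, 4.3 and 3.09 FPKM in pSC18, against 13.3, 21.5 and 21.1 FPKM in SC and 8.09, 8.9 and 20.8 FPKM in pSC24. Here SC was the higher of the ends in mean level. For the peroxidase gene, the log2 fold change was -2.13 ± 0.29 over SC (SE, edgeR adjusted p = 0.0009) and -1.55 ± 0.29 over pSC24 (SE, edgeR adjusted p = 0.00189). A locus without an annotated gene (chr1:74921736-74922548, minus strand) resembles rice metallothionein-like protein 1A, a cysteine-rich protein that binds metals. The metallothionein locus had 1.28, 0.542 and 1.44 FPKM in pSC12 and 1.65, 1.43 and 4.41 FPKM in pSC18, against 8.25, 4.96 and 8.64 FPKM in SC and 23.9, 16.5 and 16.4 FPKM in pSC24. For the metallothionein locus, the log2 fold change was -2.13 ± 0.41 over SC (SE, edgeR adjusted p = 0.00646) and -3.50 ± 0.41 over pSC24 (SE, edgeR adjusted p = 8.33e-05). A pair of thioredoxin genes passed as well. Zm00001eb433660 (chr10:150366262-150367874, plus strand), similar to the rice chloroplast thioredoxin X, had 1.49, 1.83 and 1.79 FPKM in pSC12 and 1.23, 2.37 and 2.34 FPKM in pSC18, against 3.77, 4.43 and 4.99 FPKM in SC and 4.1, 3.94 and 4.87 FPKM in pSC24. Zm00001eb015550 (chr1:53328775-53331330, minus strand), similar to rice thioredoxin-like 1-2, had 3.15, 4.22 and 3.73 FPKM in pSC12 and 7.42, 4.88 and 2.75 FPKM in pSC18, against 7.71, 12.2 and 8.22 FPKM in SC and 10.1, 9.41 and 9.97 FPKM in pSC24. Both genes were about at the same level in SC and pSC24. Of the 256 tested antioxidant and glutathione genes, 8 were lower (3.12%) and 2 higher (0.781%) in the average contrast, near the 2.22% and 0.752% of all genes.

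Of 42 tested genes grouped here by their descriptions as genes of sugar and starch metabolism or signalling, 1 was higher and 3 were lower (7.14%) against each end. Over all genes 0.0709% were higher and 0.336% lower. Zm00001eb352470 (chr8:122980936-122983977, minus strand) is similar to the Arabidopsis beta-1 subunit of SnRK1, the kinase that senses low energy. The SnRK1 subunit gene had 0.666, 0.71 and 1.91 FPKM in pSC12 and 3.21, 2.21 and 1.78 FPKM in pSC18, against 16.4, 4.52 and 11.3 FPKM in SC and 12.5, 3.25 and 9.56 FPKM in pSC24. Its replicates 2 at both ends were the lowest end libraries, and they stayed above every intermediate library. For the SnRK1 subunit gene, the log2 fold change was -2.73 ± 0.48 over SC (SE, edgeR adjusted p = 0.00385) and -2.37 ± 0.47 over pSC24 (SE, edgeR adjusted p = 0.00314). Zm00001eb016290 (chr1:56912969-56920235, minus strand), similar to rice sucrose synthase 4, had 0.468, 0.446 and 1.02 FPKM in pSC12 and 1.68, 1.59 and 3.22 FPKM in pSC18, against 4.34, 2.3 and 2.75 FPKM in SC and 7, 7.71 and 17.4 FPKM in pSC24. Zm00001eb303190 (chr7:19580549-19584098, plus strand), similar to an Arabidopsis enzyme of the raffinose pathway (galactinol-sucrose galactosyltransferase 2), had 29.5, 37.1 and 27 FPKM in pSC12 and 52.8, 47.5 and 36.4 FPKM in pSC18, against 79.6, 64.4 and 84.7 FPKM in SC and 119.7, 143 and 191 FPKM in pSC24. Both were lower against each end, and the highest library means were those of pSC24. Against these stands the trehalose-phosphate synthase gene that rose. This grouping was chosen after the values were seen.

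Ubiquitin ligases appear among the lower genes too. Zm00001eb072750 (chr2:15167537-15168758, plus strand) is similar to the Arabidopsis RING ligase ATL45. The ATL45-like gene had 0.9, 1.13 and 6.27 FPKM in pSC12 and 6.93, 7.17 and 4.74 FPKM in pSC18, against 20.6, 9.81 and 12.8 FPKM in SC and 27, 22.8 and 14.5 FPKM in pSC24. The highest intermediate library was close to the lowest SC library. For the ATL45-like gene, the log2 fold change was -1.79 ± 0.49 over SC (SE, edgeR adjusted p = 0.0357) and -2.35 ± 0.48 over pSC24 (SE, edgeR adjusted p = 0.00361), and the call passed in 4 of the 12 fits without 1 library. Zm00001eb288390 (chr6:159013095-159017275, plus strand), similar to the Arabidopsis F-box protein SKP2A, which marks cell cycle factors for degradation, had 5.23, 7.83 and 5.68 FPKM in pSC12 and 7.61, 8.33 and 12.4 FPKM in pSC18, against 20.6, 12.3 and 13.7 FPKM in SC and 21.8, 32.7 and 29.1 FPKM in pSC24. Its levels were highest in pSC24. Of 569 tested genes described as RING, U-box or F-box ubiquitin ligases, 2 were higher and 7 lower against each end (1.23% lower, against 0.336% of all genes). In the average contrast 4 were higher and 21 lower (3.69% lower, against 2.22%). The group was formed after the values were seen.

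Of 9 tested nuclease genes described as NEN or ENDO, 2 were lower (22.2%, against 0.336% of all genes) and none higher against each end. This small group was formed after the values were seen. Zm00001eb223190 (chr5:36008903-36017433, minus strand) resembles NEN1, an exonuclease-domain protein known from sieve element development in Arabidopsis. The NEN1-like gene had 0.239, 0.308 and 0.713 FPKM in pSC12 and 0.893, 0 and 0.18 FPKM in pSC18, against 0.955, 3.98 and 3.13 FPKM in SC and 27.8, 9.94 and 27.9 FPKM in pSC24. Zm00001eb068120 (chr2:5083602-5086546, minus strand) resembles Arabidopsis endonuclease 2, which cuts single-stranded nucleic acids. The endonuclease gene had 0.161, 0.141 and 0 FPKM in pSC12 and 0, 0.174 and 0 FPKM in pSC18, against 0.687, 1.81 and 0.686 FPKM in SC and 6.2, 1.21 and 13.1 FPKM in pSC24. For the NEN1-like gene, the log2 fold change was -2.83 ± 0.69 over SC (SE, edgeR adjusted p = 0.0213) and -5.84 ± 0.70 over pSC24 (SE, edgeR adjusted p = 9.64e-05). For the endonuclease gene, the log2 fold change was -3.71 ± 0.97 over SC (SE, edgeR adjusted p = 0.03) and -6.38 ± 0.99 over pSC24 (SE, edgeR adjusted p = 0.000602). Both were highest in pSC24, and both were chosen after their values were seen.

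Calcium and wall genes were named by their lists. Zm00001eb395970 (chr9:140715410-140716404, minus strand), similar to the Arabidopsis calcium-binding protein CP1, had 7.29, 8.12 and 9.44 FPKM in pSC12 and 6.57, 8.8 and 15.3 FPKM in pSC18, against 30.9, 10.9 and 19 FPKM in SC and 24.1, 29.8 and 23.8 FPKM in pSC24. Zm00001eb369820 (chr8:178498707-178504656, plus strand), similar to cyclic nucleotide-gated ion channel 4 of Arabidopsis, had 0, 0 and 0.00802 FPKM in pSC12 and 0.297, 0.023 and 0.649 FPKM in pSC18, against 0.259, 0.3 and 0.414 FPKM in SC and 0.219, 0.37 and 0.38 FPKM in pSC24. It was near 0 in pSC12, while 2 of its 3 pSC18 libraries lay within or above the range of the ends. In all, 12 of 214 calcium genes were lower (5.61%) and 1 higher (0.467%) in the average contrast, against 2.22% and 0.752% of all genes. Of these 12, 4 were lower than SC at an adjusted p under 0.05 (edgeR). One of the 12, Zm00001eb271310, is a wall-associated receptor kinase that the list took in by its calcium-binding domain. Zm00001eb420010 (chr10:104112011-104120352, minus strand), similar to Arabidopsis pectate lyase 20, which degrades pectin, had 0.212, 0.363 and 0.717 FPKM in pSC12 and 0.395, 0.131 and 0.0597 FPKM in pSC18, against 1.71, 1.25 and 2.14 FPKM in SC and 6.28, 2.65 and 18.8 FPKM in pSC24. For the pectate lyase gene, the log2 fold change was -2.57 ± 0.61 over SC (SE, edgeR adjusted p = 0.0193) and -4.99 ± 0.62 over pSC24 (SE, edgeR adjusted p = 0.000123).

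Not every member came back to the level of SC. The 12 lower genes that were called higher in pSC24 than in SC include the acetyltransferase, NEN1-like, pectate lyase, sucrose synthase and GT-2-like genes. The widest gap was that of Zm00001eb040580 (chr1:213912796-213914711, minus strand), whose best match is a DnaJ co-chaperone of Dictyostelium. The DnaJ gene had 0.102, 0.0678 and 0 FPKM in pSC12 and 0.948, 0.49 and 0.713 FPKM in pSC18, against 0.347, 1.1 and 2.59 FPKM in SC and 49, 17.9 and 62.4 FPKM in pSC24. Over SC its level in pSC24 had a log2 fold change of 4.97 ± 0.67 (SE, edgeR adjusted p = 0.000182). Zm00001eb379310 (chr9:29222829-29224838, plus strand), similar to an Arabidopsis membrane protein of the WAT1 family, had 0, 0 and 0.305 FPKM in pSC12 and 0.106, 0 and 0 FPKM in pSC18, against 1.2, 0.136 and 1.72 FPKM in SC and 17.1, 13.6 and 49.6 FPKM in pSC24. Zm00001eb182920 (chr4:129438950-129441633, minus strand), similar to a rice phosphopantothenate-cysteine ligase of coenzyme A synthesis, had 0, 0 and 0.0436 FPKM in pSC12 and 0.121, 1.53 and 1.85 FPKM in pSC18, against 1.63, 0.428 and 1.97 FPKM in SC and 9.71, 18 and 46.7 FPKM in pSC24. In these genes every pSC24 library was above every SC library. The other 2 lower genes in which the ends differed were called lower in pSC24 than in SC. Zm00001eb217220 (chr5:13913186-13916699, minus strand), similar to Arabidopsis gamma-glutamyl peptidase 5, had 6.4, 3.08 and 8.09 FPKM in pSC12 and 6.28, 10.9 and 5.54 FPKM in pSC18, against 34.5, 46.5 and 43 FPKM in SC and 10.9, 12.1 and 18.3 FPKM in pSC24. Zm00001eb414530 (chr10:70880413-70885101, plus strand), which carries no description, had 3.42, 4.13 and 2.82 FPKM in pSC12 and 4.52, 1.31 and 3.75 FPKM in pSC18, against 24.5, 20.6 and 26 FPKM in SC and 5.55, 9.58 and 5.39 FPKM in pSC24. Both regained only part of their SC level. The genes of this paragraph were chosen after their values were seen.

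Kinase genes were also among the lower members. Zm00001eb151090 and Zm00001eb098860, similar to the Arabidopsis receptor-like cytoplasmic kinases PBL27 and PBL28, had no count in the pSC12 libraries and at most 0.0386 and 0.252 FPKM in pSC18, against at most 0.538 and 1.01 FPKM in SC and 2.03 and 2.01 FPKM in pSC24. Zm00001eb104300 (chr2:204127311-204130859, minus strand), similar to the Arabidopsis lectin receptor kinase B120, had 0, 0 and 0 FPKM in pSC12 and 0.312, 0.277 and 0.189 FPKM in pSC18, against 0.409, 0.258 and 0.0389 FPKM in SC and 3.69, 4.99 and 5.96 FPKM in pSC24. Its pSC18 libraries overlapped those of SC, and in the lower mapping set alone its log2 fold change over SC was 0.15 (edgeR adjusted p = 0.938), against -3.40 in all 12 libraries. The fourth lower kinase gene, Zm00001eb271310 (chr6:86945885-86959993, plus strand), similar to the Arabidopsis wall-associated receptor kinase 5, had 2.39, 1.12 and 2.37 FPKM in pSC12 and 2.79, 3.44 and 3.31 FPKM in pSC18, against 6.42, 8.15 and 4.67 FPKM in SC and 3.54, 3.39 and 8.6 FPKM in pSC24. Of 709 tested genes with a protein kinase domain, 2 were higher and 4 lower against each end (0.564% lower, against 0.336% of all genes), a group formed after the values were seen.

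Genes at or near 0 in the interval included regulators. Zm00001eb075250 (chr2:23230509-23234898, plus strand), similar to the Arabidopsis trihelix transcription factor GT-2, had 0, 0 and 0 FPKM in pSC12 and 0, 0 and 0 FPKM in pSC18, against 0.331, 0.145 and 0 FPKM in SC and 2.88, 1.55 and 3.05 FPKM in pSC24. Zm00001eb354510 (chr8:132663488-132666012, plus strand), similar to Arabidopsis MYB86, had 0, 0 and 0 FPKM in pSC12 and 0, 0 and 0 FPKM in pSC18, against 0.2, 0.105 and 0 FPKM in SC and 2.23, 0.509 and 1.27 FPKM in pSC24. With a floor of 3 counts in each library, the GT-2-like gene was at least 5.12-fold lower in the intermediate libraries than in SC and at least 80.0-fold lower than in pSC24. The MYB86-like gene was at least 1.81-fold lower than in SC and at least 23.7-fold lower than in pSC24. In both, 1 SC library was also at 0, so that the groups overlapped there. The other 4 genes without a count in the interval are Zm00001eb003700, Zm00001eb337110, Zm00001eb186590 and Zm00001eb159180, with bounds of 2.77-fold to 8.51-fold against SC and 7.12-fold to 124-fold against pSC24.

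Zm00001eb159890 (chr3:224441716-224447713, minus strand), similar to rice HEADING DATE 3B, a flowering-time gene, had 0, 0 and 0 FPKM in pSC12 and 0, 0.655 and 0.369 FPKM in pSC18, against 0.663, 1.01 and 0.788 FPKM in SC and 1.07, 1.92 and 3.44 FPKM in pSC24. Zm00001eb072870 (chr2:15375890-15379170, minus strand), similar to the Arabidopsis clock-regulated factor REVEILLE 1, had 0.478, 0.456 and 0.62 FPKM in pSC12 and 0.531, 0.313 and 0.165 FPKM in pSC18, against 0.838, 1.64 and 1.69 FPKM in SC and 0.658, 1.41 and 2.14 FPKM in pSC24. These genes were chosen after their values were seen. The HEADING DATE 3B-like gene was at 0 in all pSC12 libraries and was detected in 2 of 3 pSC18 libraries, and the REVEILLE 1-like gene reached at most 2.14 FPKM. The labels give hours after pollination but no clock time, so the time of day of the stages was not compared for these or the other genes.

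With the term for the mapping set, 18 of the 71 lower genes passed the thresholds against each end. Of the genes described, these were the acetyltransferase, AMP ligase, N-acetyltransferase, permease, Golgi-domain, peroxidase, raffinose pathway, SKP2A-like and phosphopantothenate ligase genes and Zm00001eb147960. The adjusted p over SC (edgeR) with the term was 0.0685 for the wall gene, 0.091 for the metallothionein locus, 0.111 for the glycerol-3-phosphate transporter gene and 0.0761 for the SnRK1 subunit gene. It was 0.247 for the ATL45-like gene, 0.157 for the NEN1-like gene, 0.15 for the endonuclease gene and 0.0766 for the pectate lyase gene. It was 0.0628 for the sucrose synthase gene, 0.107 for the DnaJ gene, 0.0695 for the WAT1 gene and 0.0519 for the B120-like gene. The genes similar to GT-2, MYB86, HEADING DATE 3B, REVEILLE 1, PBL27, PBL28, CP1 and the ion channel, and both thioredoxin genes, did not pass over SC either. Of the genes described, the gamma-glutamyl peptidase gene, Zm00001eb414530 and the wall-associated kinase gene were under 2-fold over pSC24 with the term.

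In the lower mapping set alone, the permease and Golgi-domain genes and Zm00001eb147960 were the lower genes described that passed against each end. The signs turned in 3 of the 71. Beside the B120-like gene these were the ion channel gene Zm00001eb369820, with log2 fold changes of 0.0013 over SC and 0.56 over pSC24, and Zm00001eb332870, similar to the Arabidopsis auxin synthesis enzyme YUCCA10, with -1.95 over SC and 0.73 over pSC24. Over SC the value there was -0.18 for the phosphopantothenate ligase gene, -0.91 for the DnaJ gene, -1.24 for the HEADING DATE 3B-like gene and -2.01 for the acetyltransferase gene, none past the threshold (edgeR adjusted p = 0.933, 0.426, 0.545 and 0.164 in this order).

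With scaling by total counts, 24 of the 71 lower genes did not pass. Of the genes described, these were the ATL45-like, SKP2A-like, REVEILLE 1-like, sucrose synthase, raffinose pathway, CP1-like, ion channel and wall-associated kinase genes, both thioredoxin genes and Zm00001eb414530.

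**Figure D4:**
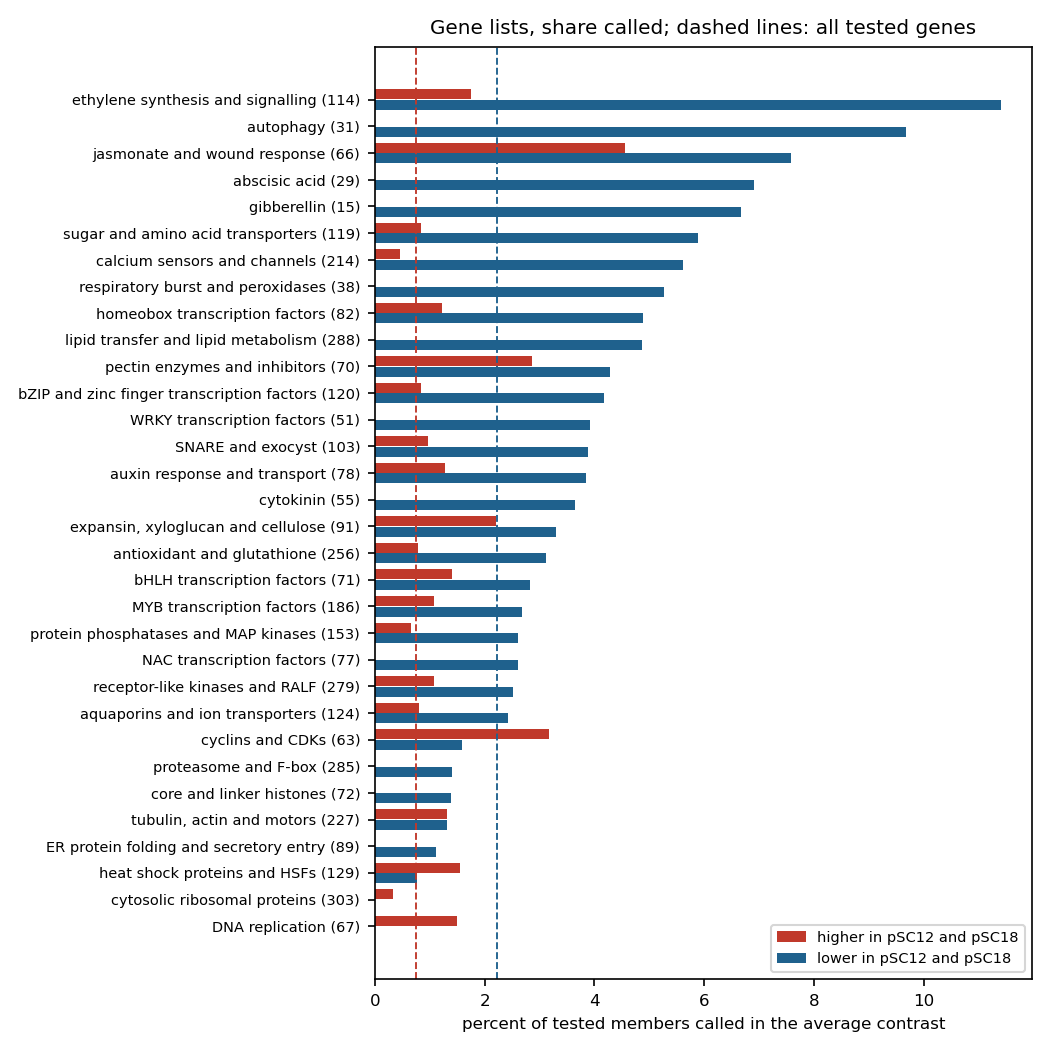
For each gene list (number of tested members in brackets), the bars give the percent of members called higher (red) and lower (blue) in the average contrast, and the dashed lines give the same for all 21143 tested genes, 0.752% higher and 2.22% lower. Ethylene (11.4% lower) and autophagy (9.68% lower) reach farthest, and the cytosolic ribosomal protein genes are at 0% lower.

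Across gene lists the lower calls of the average contrast were spread unevenly. The list of ethylene synthesis and signalling, the hormone pathway of ACC oxidases, receptors and ERF transcription factors, had 13 of 114 tested genes lower (11.4%) and 2 higher (1.75%). Of these 13, only Zm00001eb403280, similar to the Arabidopsis kinase EDR1, was lower than SC at an adjusted p under 0.05, 13 were lower than pSC24, and 9 were called higher in pSC24 than in SC. The EDR1-like gene, named after its values were seen, had 4.66, 4.45 and 5.28 FPKM in pSC12 and 7.72, 5.21 and 5.45 FPKM in pSC18, against 9.95, 7.61 and 7.46 FPKM in SC and 18.2, 14.7 and 14.3 FPKM in pSC24. One of the 13 and 1 of the 2 are Ninja-family genes, which were taken in by a shared repression motif. The Zm00001eb357070 gene, similar to the Arabidopsis ACC oxidase 1, had 0, 0.0194 and 0 FPKM in pSC12 and 0, 0 and 0 FPKM in pSC18, against 0, 0.523 and 0 FPKM in SC and 1.35, 6.29 and 4.87 FPKM in pSC24, so its dip rests on 1 SC library.

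The autophagy list, genes of the process by which cells digest their own contents, had 3 of 31 lower (9.68%) and none higher. All 3 are similar to rice ATG8C, the small protein that coats autophagosomes. Zm00001eb431210 (chr10:145202668-145206158, minus strand) had 19.6, 16.3 and 21.4 FPKM in pSC12 and 17.2, 17.6 and 19.5 FPKM in pSC18, against 35.5, 32.1 and 38.3 FPKM in SC and 55.3, 67 and 92.3 FPKM in pSC24. Its intermediate libraries did not overlap those of either end, and the log2 fold change was -0.92 ± 0.15 over SC (SE, edgeR adjusted p = 0.00295) and -1.93 ± 0.15 over pSC24 (SE, edgeR adjusted p = 7.55e-06), short of 2-fold over SC. Zm00001eb070240 (chr2:9335340-9338253, plus strand) had 48, 49.7 and 65 FPKM in pSC12 and 53.5, 63.6 and 60.1 FPKM in pSC18, against 84.5, 74.5 and 98.6 FPKM in SC and 125, 155 and 229 FPKM in pSC24. The log2 fold change of this copy was -0.60 ± 0.17 over SC (SE, edgeR adjusted p = 0.0476) and -1.56 ± 0.17 over pSC24 (SE, edgeR adjusted p = 4.95e-05). Zm00001eb171400 (chr4:29948769-29951080, minus strand) had 9.43, 6.98 and 8.81 FPKM in pSC12 and 11.2, 12.2 and 12.5 FPKM in pSC18, against 13.8, 12.6 and 13.4 FPKM in SC and 28.8, 32.4 and 51.4 FPKM in pSC24. Over SC its log2 fold change of -0.40 was not past the threshold (adjusted p = 0.2, edgeR). These genes may share reads, since the treatment of reads with several positions is not given in the sources used here.

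In the list of jasmonate and wound response, 5 of 66 were lower (7.58%) and 3 higher (4.55%). None of the 5 was lower than SC at an adjusted p under 0.05 (edgeR), and 3 of the 5 were at an unadjusted p under 0.05. The 3 higher genes are described as Increased DNA methylation 1, Ninja-family protein 1 and TIFY 11b. Their adjusted p over SC was 0.0136, 0.115 and 0.796 in this order (edgeR), so only the first was past 0.05. The list was matched in descriptions, and a role of each member in jasmonate response was not tested. In the lipid list 14 of 288 were lower (4.86%) and none higher, and 2 of the 14 differed from SC. By domain, 27 of 642 transcription factor genes were lower (4.21%) and 3 higher (0.467%), with 1 higher and none lower against each end. The GT-2-like, MYB86-like, REVEILLE 1-like and HOX29-like genes have no such entry in the domain field used for this count and are not among the 642. The count of none lower against each end therefore leaves out lower genes described as similar to transcription factors. Of 303 cytosolic ribosomal protein genes 1 was higher and none lower. DNA replication had 1 of 67 higher and none lower, cyclins and CDKs 2 of 63 higher and 1 lower, and the heat shock list 2 of 129 higher and 1 lower. Of the 2 higher genes of the heat shock list, 1 is described as DNA topoisomerase 2. In the lists not detailed here no more than 5 genes were called in either direction, and their shares are in the bar chart of the lists.

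The called members of the cell cycle list were 2 higher cyclin genes and 1 lower gene. Zm00001eb095620 (chr2:167752814-167755257, plus strand), similar to rice cyclin-D3-2, of a class that drives entry into the cell cycle, had 8.29, 20.5 and 8.27 FPKM in pSC12 and 10.6, 7.04 and 7.27 FPKM in pSC18, against 1.91, 1.11 and 3.63 FPKM in SC and 2.62, 7.01 and 5.45 FPKM in pSC24. For the cyclin-D3-2-like gene, the log2 fold change was 2.19 ± 0.46 over SC (SE, edgeR adjusted p = 0.0106) and 1.03 ± 0.43 over pSC24 (SE, edgeR adjusted p = 0.102). Zm00001eb327750 (chr7:175267011-175269656, plus strand), similar to rice cyclin-D2-2, had 1.95, 3.12 and 2.94 FPKM in pSC12 and 0.868, 0.948 and 1.95 FPKM in pSC18, against 0.795, 0.62 and 0.672 FPKM in SC and 0.453, 0.346 and 1.03 FPKM in pSC24. For the cyclin-D2-2-like gene, the log2 fold change was 1.40 ± 0.50 over SC (SE, edgeR adjusted p = 0.102) and 1.60 ± 0.50 over pSC24 (SE, edgeR adjusted p = 0.0346). Both cyclin genes were called higher in the average contrast and neither passed the thresholds against both ends. The lower member, Zm00001eb255750, is described as cyclin-dependent kinase inhibitor 1. Its log2 fold change was -0.38 over SC (edgeR adjusted p = 0.615) and -3.42 over pSC24 (edgeR adjusted p = 5.09e-05).

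The members differed in whether they passed when each intermediate stage was set against the ends alone. Of the 15 higher genes, 5 passed the thresholds against each end at both pSC12 and pSC18, 5 at pSC12 alone, 4 at pSC18 alone and 1 at neither. Of the 71 lower genes, 13 passed at both, 27 at pSC12 alone, 5 at pSC18 alone and 26 at neither. Passing at 1 stage and not at the other does not show a difference between the stages, and the difference itself passed for none of the 86 (edgeR). It had an unadjusted p under 0.05 in 1 of the 15 higher genes, in 19 of the 71 lower genes and in 2673 of the 21143 tested genes. Because pSC12 and pSC18 differ in their mapping set, these counts do not separate the stages from the sets.

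The members were spread over the genome. Lower genes lay on all 10 chromosomes, from 4 on chromosome 6 to 13 on chromosome 2. Neighbouring members less than 1 Mb apart were 6 pairs, and 3 of these joined a higher and a lower gene. The closest pair, Zm00001eb366150 and Zm00001eb366290 on chromosome 8, lay 114.7 kb apart and were both lower.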

How the data were processed

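RNA of synergid cells was measured in 12 libraries, grouped by the sample titles into SC, pSC12, pSC18 and pSC24 (3 each, 25 to 28 cells per library). The authors trimmed reads with cutadapt 1.15 and an in-house script and aligned them by HISAT2 2.0.5 against AGPv5 (Zm-B73-REFERENCE-NAM-5.0). With featureCounts 1.5.0-p3 the authors then obtained whole-number counts for each gene, deposited without normalization. The strand setting is not given in the sources used here, so overlapping and near-identical genes are uncertain. The FPKM values deposited by the authors were found to be counts over gene length, with library sizes taken from DESeq2 size factors. Gene positions and descriptions come from the same tables, and a description is the best protein match, often in another species. Of the 45246 rows, 1 further row of each table was not analysed here.

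Counts were tested with edgeR 4.0.16 (glmQLFit and glmQLFTest, limma 3.58.1, R 4.3.3) in 1 fit of all 12 libraries with stage as the only term, TMM scaling and edgeR's filter on low counts, which left 21143 genes and loci, with a common dispersion of 0.239. The contrasts were the mean of pSC12 and pSC18 against the mean of SC and pSC24, against SC and against pSC24. Each was adjusted by the Benjamini-Hochberg method over all tested genes, and calls needed an adjusted p under 0.05 and a fold over 2. The SE is that of the log2 fold change. Where a group had no count in any library, a bound was computed against 3 counts in each library. Such bounds cover counting error only, since amplified reads are not independent molecules. The study's methods describe the libraries of a stage as independent biological replicates, and p-values measure the spread between these libraries.

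Among genes past the thresholds against each end, with a mean of at least 5 FPKM and no overlap between the 6 and 6 libraries, the 12 higher and 12 lower with the largest smaller log2 fold change were named, filled from the average contrast where fewer passed. Transcription factor genes by domain, up to 8 per direction, and up to 3 called members of each gene list were named by the same rank where the text describes their list. The members, lists and groups were chosen with earlier results of these data known. Gene lists were matched in the descriptions, the nucellus list matched 0 genes, and no list was tested. Alternatives were other scalings and filters, DESeq2 1.42.0, terms for the mapping set and replicate number, subsets of libraries, other thresholds and each library left out. The scripts were tested on simulated counts. Figures were drawn with Python 3.11.15 and matplotlib 3.10.9.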

Additional observations from a re-analysis of the deposited data

How the results depend on the processing

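With main counts of 15 higher and 71 lower genes against each end, and 159 higher and 469 lower in the average contrast, other settings gave other counts. Total count scaling gave 35 higher against each end, with 49 lower (47 of the 71), and 309 higher in the average contrast, and DESeq2 gave 24 higher, with 14 of the 15 and 56 of the 71 among its calls. The mapping set term gave 27 lower. The lower mapping set alone gave 6 higher and 8 lower, 28 and 30 in the average contrast, and 10 of the 24 named genes past the thresholds there. In that set pSC24 is 1 library, which is assumed to vary like the others. The stage pSC12 alone gave 27 higher and 245 higher in the average contrast, and pSC18 alone gave 31 lower, with 100 higher and 139 lower in the average contrast. An adjusted p under 0.01 gave 7 and 19 against each end and 61 and 185 in the average contrast, no fold threshold gave 158, 207, 835 and 983, and glmTreat for a fold over 1.5 gave 5, 13, 21 and 111, all higher before lower. Requiring no overlap left 41 lower genes. Leaving out each library in turn gave 8 to 19 higher and 30 to 97 lower genes against each end, 87 to 189 higher and 337 to 533 lower genes in the average contrast, and 20 to 24 named genes. The cause of these differences was not tested. None of the 24 named genes changed direction in the average contrast under these alternatives. In the lower mapping set alone 3 of the 71 lower genes changed sign, Zm00001eb104300 over SC (0.15), Zm00001eb369820 over SC (0.0013) and pSC24 (0.56), and Zm00001eb332870 over pSC24 (0.73).

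Replicate numbers are shared between stages, but libraries of the same number did not deviate together, with correlations of -0.0642 to 0.0597 over 18 pairs, against -0.0859 to 0.0878 over 36 pairs of different numbers. The fit with the replicate block called 13 higher and 53 lower genes, among them 11 of the 15 and 48 of the 71. With the replicate block and the mapping set term 5 higher and 13 lower genes passed. Of 600 fits of the 24 named genes under 25 alternatives, all of the average contrast, 551 gave the same direction and side of the threshold. The other 49 gave the same direction without passing it, and 9 of the genes passed in all. These fits do not cover the call against each end. That call passed in all 27 alternative settings for 2 of the 15 higher and 2 of the 71 lower genes. Depth limits the genes at 0 in the interval, whose folds are bounds.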
